A study of Mus musculus with 5 samples.

Results

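The transcripts examined here were those of 3 of the surface antigens against which the cells had been sorted: Itga2b, Spn and Ptprc, the genes of CD41, CD43 and CD45. They were taken by name from the 24411 gene rows of a table of unique molecular identifiers (UMIs, 1 per captured mRNA molecule), and were read in the 294 of 480 wells with at least 1000 genes and 30000 UMIs. The genes were named by the sort, but they were chosen with earlier results of these data known. The cells came from the blood circulating in the hearts of wild-type C57BL/6 mouse embryos and were sorted TER119-, CD41-, CD43- and CD45-. Embryonic day 9.5 (E9.5) had 2 batches and embryonic day 10 (E10) had 3, with 26 and 46 cells and with 87, 72 and 63 cells, in the order of the replicate numbers. Every cell carried the same negative gate, and no sample of unsorted or antigen-positive cells was part of the comparison. The labels call the cells non-hematopoietic circulating cells, which sets the question addressed here: whether, in cells negative for the proteins, the mRNAs were detected, and in which cells.

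CD41 is integrin alpha IIb, which pairs with integrin beta 3 to form the fibrinogen receptor of megakaryocytes and platelets and is also carried by early blood progenitors of the embryo. CD43, also called leukosialin, is a mucin-like sialoglycoprotein of most white blood cells and of maturing embryonic progenitors. It is tied to the cytoskeleton by ezrin, radixin and moesin. CD45 is the receptor tyrosine phosphatase of nucleated blood cells, which acts on Src family kinases and is lost as red cells mature. The antibodies read protein on the surface, whereas the UMIs read mRNA, and the table holds no protein values.

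The mRNA of CD41 was present in 76 of 294 cells and that of CD43 in 48, while CD45 mRNA was listed at 0 in all 480 wells. Most UMIs of both detected genes lay in cells with a blood programme. A haematopoietic progenitor-like cluster of 14 cells and 2 erythroid-like clusters of 46 cells held 85.5% of the Itga2b UMIs and 89.4% of the Spn UMIs, with 20.4% of the cells. The genes were distributed differently over these classes: the progenitor-like cells held 83.2% of the Spn UMIs, whereas Itga2b was divided into 41.9% in progenitor-like and 43.6% in erythroid-like cells.

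The 294 cells held 104791537 UMIs, with a median of 308923.5 per cell, a range of 31294 to 1407021, and batch totals of 7545865 to 44415774. Levels are given as CPM, the UMIs of a gene scaled to a total of 1000000 UMIs in the cell or in the summed cells. The protocol tags 1 end of each mRNA, so CPM were not divided by gene length, and levels are compared between cells and not between genes. One batch, E10 replicate 2, stood apart in blood transcripts: the median level of Hbb-y, an embryonic beta-like globin, was 23789 CPM there against 149 to 8153 CPM in the other 4 batches, and every cell in all batches had Hbb-y UMIs. Among wells of at least 5000 UMIs, 23 held counts that best matched a deeper well that shared their number but not their batch. Of these, 0 reached 30000 UMIs, so none is among the 294 cells. Most were wells of E10 replicate 2 that matched E10 replicate 3, at 1.68 to 4.66% of the UMIs of the match. Whether such counts also reached the wells of E10 replicate 2 that are among the 294 was not tested. Cells were grouped by clustering without the 3 genes and without the related genes described below. The progenitor-like cluster was named from 8 markers, Kit, Myb, Gfi1b, Runx1, Tal1, Lyl1, Lmo2 and Ikzf1. The rest of that list, Gata2, Spi1, Cd34, Csf2rb, Hlf, Mpo and Fcgr3, did not meet the marker rule. The erythroid-like clusters were named from 10 markers, among them Hbb-y, Alas2, Klf1 and Epor, and Hbb-b1, Hba-a1 and Hba-a2 did not meet it. Gata1, on the erythroid list, stood at 203 CPM in progenitor-like and 132 CPM in erythroid-like cells. A further 42 cells were neural or neural crest-like. The cells outside the blood classes, 234 in all including those 42, are called other cells. Names were rebuilt from markers and can differ from the study's own. Against the sort label, 60 of 294 cells were thus in classes with blood markers.

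Ptprc, at chr1:138062861-138175708 of GRCm38 (mm10) on the minus strand, had 0 UMIs in every batch. For the 294 cells together, 0 cells allow a share of up to 1.02% with a UMI, and 3 UMIs of the whole depth correspond to 0.0286 CPM. In the 14 progenitor-like cells the limit is looser, a share of up to 21.4% and a level of 0.389 CPM. These limits cover counting error only. A row at 0 was not rare, since 6741 of the 24411 gene rows, 27.6%, were at 0 in all wells, including Hbb-b1, an adult beta globin, and Hba-a1, an alpha globin. Cd53, a tetraspanin of white blood cells, was at 0 as well. Whether a Ptprc molecule would have been counted in this table was not tested.

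Ptprcap, the gene of a CD45-associated protein, was read in 13 of 14 progenitor-like cells. Its summed level was 100.1 CPM in E9.5 replicate 2, 54.1 CPM in E10 replicate 2 and 177 CPM in E10 replicate 3. In erythroid-like cells the same batches gave 3.85, 5.38 and 1.05 CPM, and in other cells 2.97, 3.83 and 2.02 CPM. Ptprcap overlaps exons of Coro1b and Rps6kb2 at chr19:4153604-4156751, and with no strand setting recorded its reads cannot be told apart from theirs.

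Itga2b, at chr11:102453297-102470122 on the minus strand, had 585 UMIs. It was detected in 1 of 26 cells of E9.5 replicate 1 (24 UMIs) and in 11 of 46 cells of E9.5 replicate 2 (34 UMIs). At E10 it was detected in 1 of 87 cells of replicate 1 (50 UMIs), 56 of 72 cells of replicate 2 (404 UMIs) and 7 of 63 cells of replicate 3 (73 UMIs). E10 replicate 2 was the high batch, at 77.8% of cells with a 95% exact (Clopper-Pearson) interval of 66.4 to 86.7%, above the intervals of the other 4 batches, and it held 69.1% of all Itga2b UMIs. The level of the summed cells was 3.18 and 4.06 CPM at E9.5 and 1.13, 16.7 and 3.62 CPM at E10, so the stages overlapped. After each cell was thinned to 30000 UMIs, the shares fell to 3.85% and 8.70% at E9.5 and 1.15%, 23.6% and 4.76% at E10, in the same order of batches.

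Spn, at chr7:127132232-127137823 on the minus strand with no overlapping gene in GENCODE M21, had 321 UMIs. It was detected in 1 of 26 cells (1 UMI) and 11 of 46 cells (60 UMIs) of the E9.5 batches. At E10 it was detected in 2 of 87 cells (6 UMIs), 30 of 72 cells (219 UMIs) and 4 of 63 cells (35 UMIs). E10 replicate 2 was again highest, at 41.7% of cells with an interval of 30.2 to 53.9%, which overlapped that of E9.5 replicate 2, 12.6 to 38.8%. The summed levels were 0.133 and 7.16 CPM at E9.5 and 0.135, 9.02 and 1.73 CPM at E10, so each stage had a batch near 0 and a batch above 7 CPM. Thinned to 30000 UMIs, the shares were 0% and 8.70% at E9.5 and 0%, 11.1% and 3.17% at E10.

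**Figure D1:**
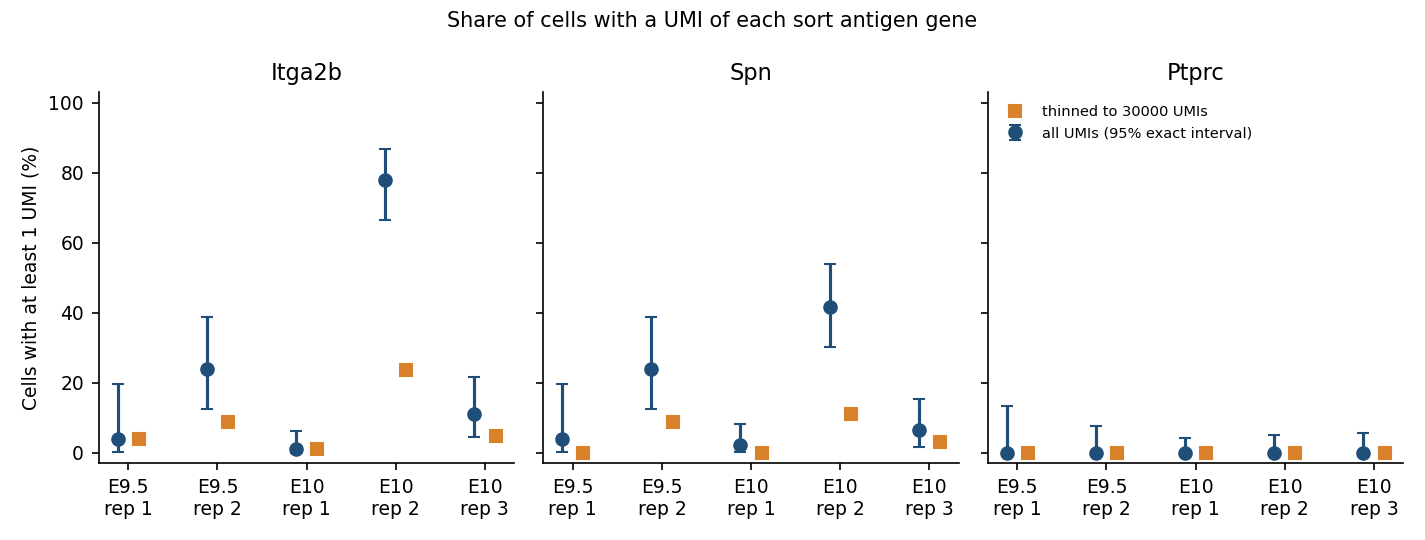
Share of cells with at least 1 UMI of each gene in the 5 batches, in percent, with 95% exact intervals (circles) and after thinning each cell to 30000 UMIs (squares). E10 replicate 2 is highest for Itga2b (77.8%) and Spn (41.7%), and Ptprc is at 0 in every batch.

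No difference between the stages was found for either gene. The mean share of cells with an Itga2b UMI in E9.5 batches was 13.9% ± 14.2 (SD, n = 2) and in E10 batches 30.0% ± 41.7 (SD, n = 3), with a two-sided exact permutation p of 0.9, also 0.9 adjusted over the 2 genes. For Spn the means were 13.9% ± 14.2 (SD, n = 2) and 16.8% ± 21.7 (SD, n = 3), again with a two-sided exact permutation p of 0.9. The 10 possible splits of the 5 batches allow no p below 0.1. On summed counts, the log2 fold change of E10 over E9.5 was 1.00 (SE 1.22) for Itga2b and -0.06 (SE 1.86) for Spn, and the quasi-likelihood test of edgeR gave Benjamini-Hochberg adjusted p of 0.835 and 0.997. That test called 0% of 14102 genes between the stages (1119 genes at an unadjusted p under 0.05), and DESeq2 called 86 of 13269 genes, 0.648%. Without E10 replicate 2 the difference in the Itga2b share turned to -7.75 percentage points and that in the Spn share to -9.56. Each batch holds 1 stage, and the labels do not tie batches to litters or embryos, so the p-values measure only the spread between these samples, which may be technical.

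Each of the 14 cells of the progenitor-like cluster carried one or both mRNAs. Spn was present in 13 of 14 cells, at 28.2 CPM in the 4 cells of E9.5 replicate 2, 47.2 CPM in the 7 cells of E10 replicate 2 and 16.4 CPM in the 3 cells of E10 replicate 3 (30.6 ± 15.6 CPM, SD, n = 3 batches). Single cells ranged from 0 to 85.4 CPM, and the 1 cell without Spn was in E10 replicate 2. The other 2 batches had no progenitor-like cell.

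Itga2b was present in 11 of the 14 progenitor-like cells, with a wider spread between batches. Its summed level was 7.48 CPM in E9.5 replicate 2, 58.3 CPM in E10 replicate 2 and 2.41 CPM in E10 replicate 3 (22.7 ± 30.9 CPM, SD, n = 3 batches). All 7 progenitor-like cells of E10 replicate 2 had the transcript, against 2 of 4 and 2 of 3 in the other batches. A single cell of E10 replicate 2, with 126 Itga2b UMIs (200 CPM), held 51.4% of the class's UMIs and 21.5% of those of all cells.

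Erythroid-like cells had Itga2b without a matching amount of Spn. Itga2b was found in 31 of 46 erythroid-like cells, at 5.78 CPM in E9.5 replicate 2 and at 12.3 and 11.04 CPM in replicates 2 and 3 of E10 (9.71 ± 3.46 CPM, SD, n = 3 batches). E9.5 replicate 1 and E10 replicate 1 each had only 1 erythroid-like cell, at 56.8 and 71.8 CPM, and in each batch that cell held every Itga2b UMI. In E10 replicate 3, 1 erythroid-like cell held 54 of the batch's 73 UMIs. Of the 2 erythroid-like clusters, the one drawn wholly from E10 replicate 2 (23 cells) had Itga2b in 20 cells at 12.3 CPM, and the one drawn from the other batches (23 cells) in 11 cells at 16.1 CPM. The median cell stood at 5.33 CPM in the former and at 0 in the latter. Most of the 152 UMIs of the latter lay in cells with 54, 50 and 24 UMIs.

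Spn was found in 14 of 46 erythroid-like cells, with at most 3 UMIs in a cell. Its summed level was 1.54 CPM in E9.5 replicate 2, 1.91 CPM in E10 replicate 2 and 0 of 5706680 UMIs in E10 replicate 3, where 3 UMIs would be 0.526 CPM. After thinning to 30000 UMIs, 0 of the 46 cells kept a Spn UMI, against 9 of 14 progenitor-like cells. For Itga2b the thinned counts were 11 of 46 and 7 of 14.

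**Figure D2:**
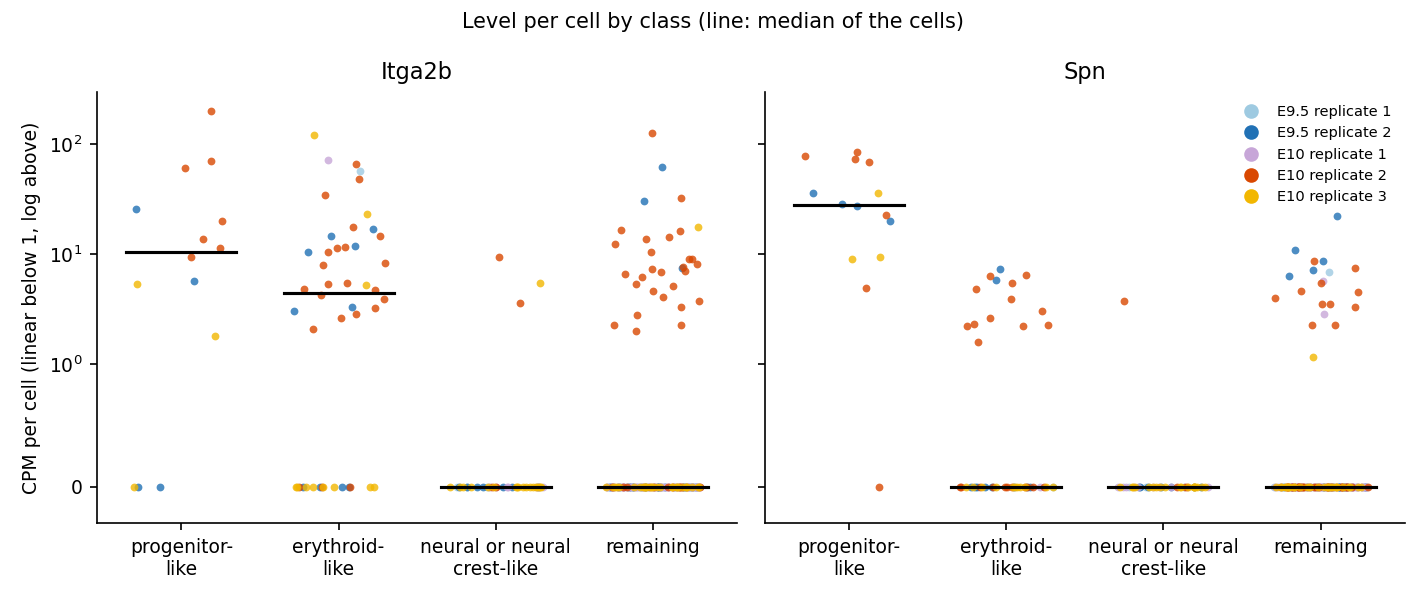
Itga2b (left) and Spn (right) in each of the 294 cells by class, in CPM on an axis that is linear below 1 and logarithmic above, coloured by batch, with the class median as a line. Median Itga2b is 10.5 CPM in progenitor-like and 4.50 CPM in erythroid-like cells, and median Spn is 28.0 CPM in progenitor-like cells and 0 in the other 3 classes.

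The level outside the blood classes was low but not 0, and it differed between batches. Neural or neural crest-like cells, which belong to no blood lineage, had Itga2b in 3 of 42 cells (7.14%, exact interval 1.498 to 19.5%) and Spn in 1 of 42 (2.38%, exact interval 0.0603 to 12.6%). Their median depth was 277546 UMIs, against 524863.5 in progenitor-like and 371308.5 in erythroid-like cells. Of the 34 other cells with Itga2b, 29 were among the 42 other cells of E10 replicate 2, and 28 of those 29 had at most 5 UMIs. The median Hbb-y level of the 42 other cells was 21255 CPM. In E10 replicate 1, at a median Hbb-y of 148 CPM, 0 of 86 other cells had Itga2b, which allows a share of up to 3.49%.

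Within E10 replicate 2 the share of cells alone did not separate the classes. Itga2b was detected in 87.0% of its erythroid-like cells (exact interval 66.4 to 97.2%) and 69.0% of its other cells (52.9 to 82.4%), intervals that overlapped. Its level was 12.3 CPM in the erythroid-like and 6.16 CPM in the other cells of that batch. Set against the globin of the same cells, Itga2b stood at 39.3 UMIs per 10000 Hbb-y UMIs in progenitor-like cells, 1.57 in erythroid-like cells and 3.21 in other cells of E10 replicate 2. The corresponding Spn values were 31.8, 0.244 and 0.825, so the ratio of progenitor-like cells was the highest for both genes. The part of blood RNA from other cells in the low counts of this batch was not tested.

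The differences between classes were tested on UMIs summed per batch and class in the 3 batches that had all classes, with batch as a block. The filter on low counts was set by class, so a gene could pass it through the 3 sums of 1 class alone. For a gene low elsewhere, as Spn was, a call as higher in that class is partly tied to this filter. In the other cells of E9.5 replicate 2, E10 replicate 2 and then E10 replicate 3, the levels were 1.48, 6.16 and 0.403 CPM for Itga2b and 1.73, 1.58 and 0.0806 CPM for Spn. In progenitor-like against other cells both detected genes were higher, where 31.7% of all 11010 genes tested were called and 13.7% were called as higher. The log2 fold change was 5.56 (SE 1.06) for Spn and 3.06 (SE 0.92) for Itga2b, higher in 3 of 3 batches each. The edgeR quasi-likelihood test gave Benjamini-Hochberg adjusted p of 0.000366 and 0.0140. The Spn call held without each batch in turn, whereas the Itga2b call was lost without E10 replicate 2, at 2.76 and an adjusted p of 0.198 by the same edgeR test. The classes were formed from other genes of the same cells, which can vary together with the members, so these p-values are tied to that grouping.

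In erythroid-like against other cells only Itga2b was called. Its log2 fold change was 3.55 (SE 0.99), higher in 3 of 3 batches (Benjamini-Hochberg adjusted p = 0.00947, quasi-likelihood test of edgeR), where 27.3% of all genes were called and 12.9% as higher. That call was lost without E10 replicate 2 (4.38, adjusted p = 0.0607 by edgeR), without E10 replicate 3 (2.11, adjusted p = 0.0625) and without the batch block (2.53, adjusted p = 0.109). Spn had a log2 fold change of 0.70 (SE 0.98, adjusted p = 0.640 by edgeR).

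Compared directly, the blood classes differed in Spn. Spn was 4.87 higher on the log2 scale in progenitor-like than in erythroid-like cells (SE 1.06, adjusted p = 0.00570 by edgeR, higher in 3 of 3 batches), where 5.35% of all genes were called, 2.49% as higher and 2.86% as lower. This call was lost without E10 replicate 2 (5.54, adjusted p = 0.0568 by edgeR) and without the batch block (4.28, adjusted p = 0.0686). For Itga2b the log2 fold change was -0.50 (SE 0.93, adjusted p = 0.826 by edgeR), and it turned to 0.94 without E10 replicate 3 and to 0.68 without the batch block. The order of the Itga2b levels of the blood classes therefore lay within the spread of the batches: progenitor-like was above erythroid-like in replicate 2 of both stages and below it in E10 replicate 3. The order in E10 replicate 3 rests on few cells. Its 3 progenitor-like cells had 5 Itga2b UMIs, and 1 erythroid-like cell held 54 of the 63 of its class.

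**Figure D3:**
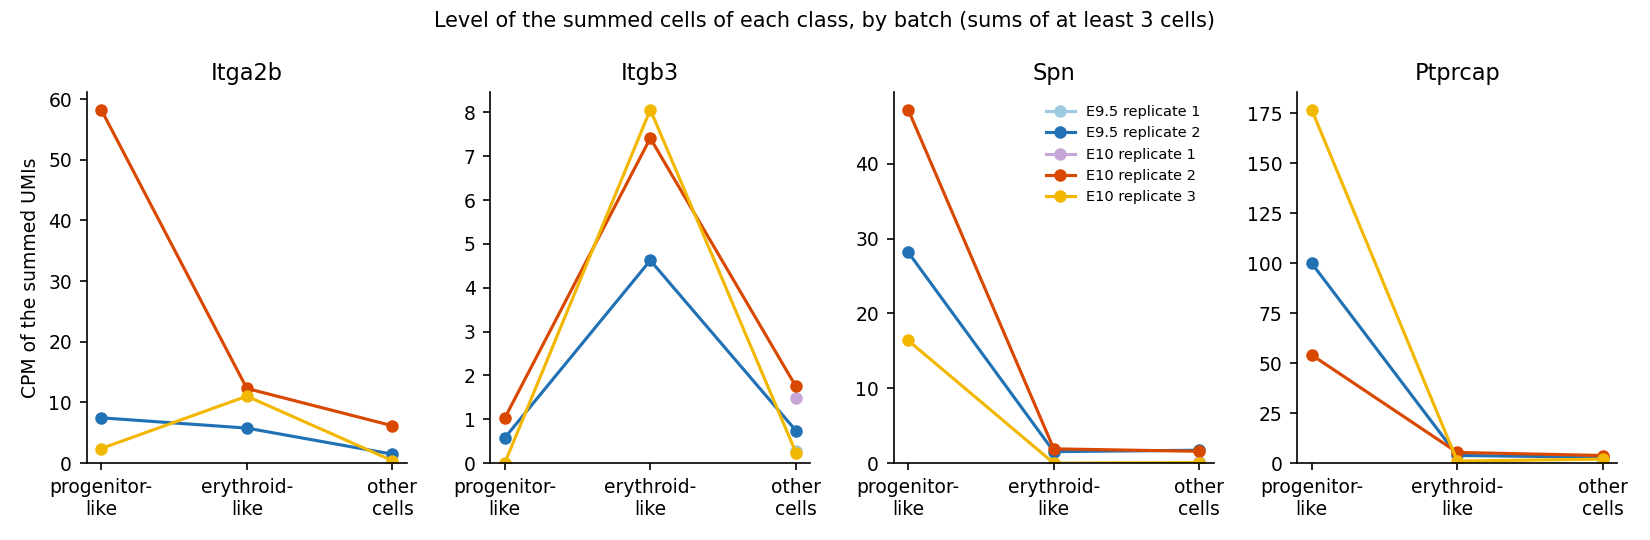
Level of the summed cells of each class in CPM, with 1 line per batch, for Itga2b, Itgb3, Spn and Ptprcap, for sums of at least 3 cells. Spn and Ptprcap are highest in the progenitor-like sum of every batch that has one, and Itgb3 in the erythroid-like sum of the same 3 batches. The Itga2b order differs between batches, and in E10 replicate 3, 1 erythroid-like cell held 54 of the 63 Itga2b UMIs of its class.

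The mRNAs of CD41 and CD43 were found together in 32 cells, Itga2b alone in 44, Spn alone in 16 and neither in 202. Of the cells with Spn 66.7% also had Itga2b, and of the cells with Itga2b 42.1% also had Spn. Among progenitor-like cells 10 had both, 1 only Itga2b, 3 only Spn and 0 neither. Among erythroid-like cells 11 had both, 20 only Itga2b, 3 only Spn and 12 neither, and 10 of the 11 were in E10 replicate 2. With at least 2 UMIs required of each gene, 16 cells had both, of which 10 were progenitor-like. A high level of one gene did not always come with a high level of the other in the progenitor-like cells of E10 replicate 2: the cell with the highest Spn, 85.4 CPM, had 13.8 CPM of Itga2b, and a cell with 70.8 CPM of Itga2b had 4.94 CPM of Spn.

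**Figure D4:**
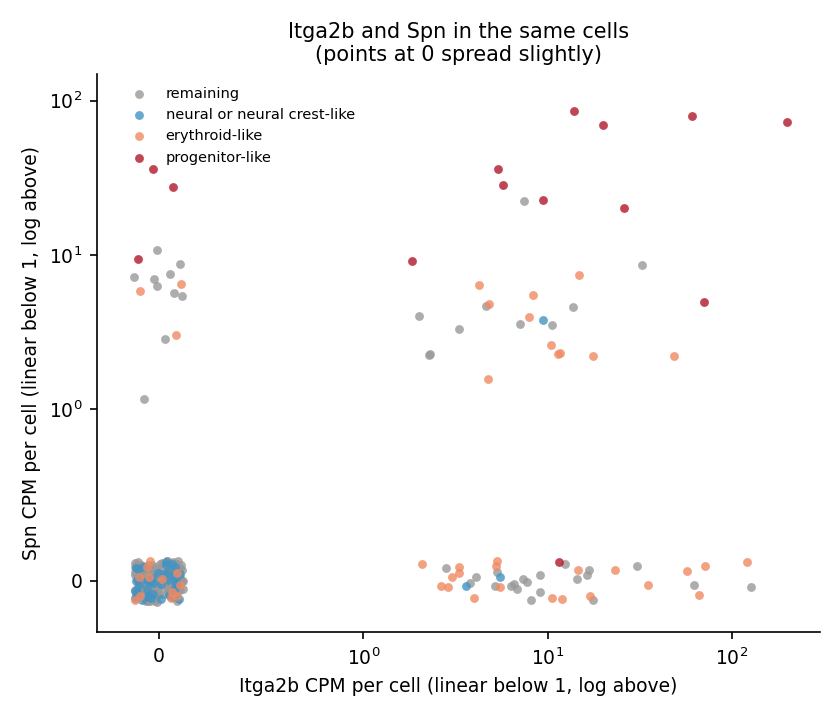
Itga2b against Spn in the same cell, in CPM on axes that are linear below 1 and logarithmic above, coloured by class, with points at 0 spread slightly. Progenitor-like cells occupy the upper part (Spn of 4.94 to 85.4 CPM in 13 of 14 cells), and most erythroid-like cells with Itga2b lie at or near 0 for Spn.

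Spn is the member with the clearest class contrast, so the 250 bases before its RefSeq start are shown, at chr7:127137824-127138073 of GRCm38.p6 on the minus strand, 5′ to 3′. Capitals mark the only match found, to the ETS core AGGAAG read on the opposite strand, at positions -22 to -17 before the start.
Spn: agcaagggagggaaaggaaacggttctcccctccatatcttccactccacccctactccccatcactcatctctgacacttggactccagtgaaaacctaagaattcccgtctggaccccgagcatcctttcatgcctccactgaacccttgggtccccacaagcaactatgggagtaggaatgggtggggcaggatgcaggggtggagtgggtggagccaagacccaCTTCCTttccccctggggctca
The search covered both strands for the GATA core (AGATAA or TGATAA), the ETS core (AGGAAG) and the RUNX core (TGTGGT), motifs of factor families that act in blood cells. The 250 bases before the RefSeq start of Itga2b, which lie almost wholly inside the longer GENCODE M21 gene, held 2 ETS matches, both inside that gene. Neither window held a GATA or RUNX match. Of 32851 mouse promoters of the same length, 29.5% held the ETS letters, 16.6% the GATA letters and 14.05% the RUNX letters. A match is a description of letters only.

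The genes most like Spn across cells were genes of the progenitor-like cluster. Likeness was the Pearson r of log2(CPM + 10) across the cells of a batch, averaged over the 3 batches with at least 3 positive cells (46, 72 and 63 cells), among 13960 genes. It is a description in which all cells of a batch share library and class makeup. The 8 closest were Abcb4 (0.84), Tnfaip2 (0.81), Ptpn7 (0.80), Gm15915 (0.76), Vamp5 (0.74), Inpp5d (0.73), Samsn1 (0.73) and Myb (0.73). Ptpn7 encodes a tyrosine phosphatase of blood cells, Inpp5d the lipid phosphatase SHIP1 and Myb a transcription factor of progenitors. Myb stood at 158 CPM in progenitor-like, 5.85 CPM in erythroid-like and 5.70 CPM in other cells. Ptprcap was rank 16, at 0.67.

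No gene was as close to Itga2b. Its 8 closest were Fmo1 (0.45), E130215H24Rik (0.39), Fbxl4 (0.38), Gata1 (0.37), Pklr (0.36), Pdia2 (0.34), Slc38a5 (0.34) and Tuba4a (0.32), and in counts this sparse such values are weak. Fmo1 had UMIs in 10 cells only. Gata1, the erythroid and megakaryocyte transcription factor, had the narrowest range over batches among the first 4 (0.35 to 0.39), and Pklr, the red cell pyruvate kinase, ranged from 0.32 to 0.37. The r of Itga2b with Spn was 0.22, rank 222 from the side of Itga2b and rank 1222 from that of Spn.

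Genes of CD41 signalling were called at about the share of all genes in the progenitor-like class. Of 20 listed genes of CD41 signalling and platelet adhesion, 10 passed the filter on low counts of the class fit, and 3 were at 0 UMIs. Of the 10, 2 were higher and 2 lower in progenitor-like than in other cells, and 6 were not called, where 31.7% of all genes were called, 13.7% as higher and 17.9% as lower. Their median log2 fold change was 0.55 against -0.17 for all genes. Fermt3, kindlin-3, which activates integrins in blood cells, stood at 95.8, 6.07 and 1.79 CPM in progenitor-like, erythroid-like and other cells (log2 fold change 5.42, SE 0.61). Apbb1ip, the adaptor RIAM, stood at 43.7, 0.956 and 0.530 CPM (6.00, SE 1.17). As a gene near 0 elsewhere, Apbb1ip can pass the filter through the progenitor-like sums alone. Cd9, a tetraspanin, was lower by a log2 fold change of -1.83 and Thbs1, thrombospondin 1, by -4.02. The calls of Fermt3 and Apbb1ip held without each batch, but that of Cd9 was lost without E10 replicate 2 (adjusted p = 0.0826 by edgeR) and that of Thbs1 without E10 replicate 2 (0.0531) and without E9.5 replicate 2 (0.257).

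The beta subunit of CD41 was low in the progenitor-like class. Itgb3, the beta 3 chain that CD41 needs to reach the surface, was named after its values were seen. It stood at 0.575, 1.03 and 0 CPM in the progenitor-like sums of the same 3 batches, in order of stage and replicate, on 5 UMIs in all. In the erythroid-like sums it stood at 4.62, 7.41 and 8.06 CPM (6.70 ± 1.83, SD, n = 3 batches). In E10 replicate 3, 1 erythroid-like cell held 24 of the batch's 49 Itgb3 UMIs. The log2 fold change of Itgb3 was -0.44 in progenitor-like against other cells (adjusted p = 0.841 by edgeR). In erythroid-like against other cells it was 4.01 (adjusted p = 0.0295 by edgeR), where 12.9% of all genes were called as higher. The latter call was lost without any 1 of the 3 batches, with adjusted p of 0.0979 without E10 replicate 2, 0.173 without E10 replicate 3 and 0.118 without E9.5 replicate 2, and it was 0.0517 without the batch block. Between the blood classes directly the adjusted p was 0.0818 by edgeR.

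Other markers of platelets and their precursors were near 0 in both blood classes. Of the 8 listed megakaryocyte markers, Treml1 was at 0 in every cell, and Vwf and Mmrn1 were at 0 in both blood classes. Pf4, platelet factor 4, stood at 0.908 CPM in progenitor-like, 1.52 CPM in erythroid-like and 2.11 CPM in other cells. The value of the other cells rested mainly on 1 cell of E10 replicate 2, which held 128 Pf4 UMIs. Tubb1, the platelet beta tubulin, had UMIs in 4 erythroid-like cells and in no other cell. Gp6, P2ry12 and Selp, genes of platelet receptors and P-selectin, were at 0.

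Other integrin subunits were also called at about the share of all genes in progenitor-like cells. Of 25 listed, 10 passed the filter, and 1 was higher and 2 lower than in other cells, against 31.7% called over all genes, with a median log2 fold change of -1.91. Itga4, the alpha 4 chain used by blood progenitors in homing, stood at 121, 9.90 and 27.4 CPM in progenitor-like, erythroid-like and other cells and was called higher in progenitor-like cells (2.17, SE 0.45). Itga9 (-3.39) and Itgb5 (-3.61) were lower there, the latter not without E9.5 replicate 2 (adjusted p = 0.0940 by edgeR). In erythroid-like cells 6 of 10 were lower than in other cells and 1, Itgb3, was higher, where 14.4% of all genes were called as lower and 12.9% as higher, with a median of -2.01 against -0.23 for all genes. The lower genes numbered 3 without E10 replicate 2, 1 without E10 replicate 3, 3 without E9.5 replicate 2 and 1 without the batch block.

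Of 18 listed genes that link CD43 to the cytoskeleton, build mucin sugars or encode other sialomucins, 16 passed the filter. In progenitor-like against other cells 5 of these were higher and 1 lower, near the 31.7% called over all genes (13.7% as higher), with a median log2 fold change of 0.42. Ezr, the linker ezrin, stood at 52.1, 18.05 and 24.6 CPM in progenitor-like, erythroid-like and other cells (1.61, SE 0.54), a call lost without E10 replicate 3 (adjusted p = 0.191 by edgeR). Gcnt1, an enzyme that branches mucin-type sugars, was higher in progenitor-like (3.03) and in erythroid-like cells (4.27), as was Podxl, the sialomucin podocalyxin (3.34 and 3.30). Selplg, the gene of P-selectin's ligand PSGL-1, was higher by 6.44 in progenitor-like cells on 48 UMIs in all, lost without E9.5 replicate 2 (adjusted p = 0.0686 by edgeR), and St6galnac4, a sialyltransferase, by 2.53, lost without E10 replicate 3 (0.194). The higher genes of this list numbered 3 without E10 replicate 3 and 2 in cells thinned to 30000 UMIs. Selplg, near 0 in erythroid-like and other cells, can pass the filter through the progenitor-like sums alone.

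Of 26 listed genes of CD45 signalling and of white blood cells at large, 17 passed the filter on low counts. Of these, 9 were higher and 2 lower in progenitor-like than in other cells (median log2 fold change 2.07). Of all genes, 13.7% were called as higher and 17.9% as lower there. Listed genes near 0 elsewhere can pass the filter through the progenitor-like sums alone, so the count of higher genes is tied to the filter. In erythroid-like cells 1 was higher and 1 lower than in other cells (median -0.60), where 12.9% of all genes were called as higher and 14.4% as lower. Was, the actin regulator missing in Wiskott-Aldrich syndrome, stood at 39.2, 0.562 and 0.378 CPM in progenitor-like, erythroid-like and other cells (6.999, SE 1.10). Rac2, a GTPase of blood cells, stood at 74.1, 12.3 and 1.49 CPM (4.94, SE 0.75), and Ptprcap had a log2 fold change of 5.56 (SE 0.64). Lck, the T cell kinase that CD45 acts on, was lower by -5.26 and Lcp2, the adaptor SLP-76, by -5.24. Those 2 were lost without E9.5 replicate 2 (adjusted p of 0.150 and 0.140 by edgeR), Lck also without E10 replicate 2 (0.0791) and Lcp2 without E10 replicate 3 (0.0922), while Was, Rac2 and Ptprcap were called without each batch. The number of higher genes of this list was 6 without E10 replicate 2 and without E9.5 replicate 2, and 3 in cells thinned to 30000 UMIs.

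Most of the listed macrophage markers were at 0 in the progenitor-like cells. Of 11, C1qa, C1qb, C1qc, Adgre1, Fcgr1 and Lyz2 were at 0 in every cell, and Aif1, Mrc1 and Ctss were at 0 in both blood classes. Cd68, a lysosomal protein of macrophages that many cells carry, was at 7.39 CPM in progenitor-like and 13.4 CPM in other cells.

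Genes of red cell membrane proteins were high in both blood classes. Of 17 listed, 14 passed the filter on low counts. All 14 were higher in erythroid-like than in other cells and 11 of 14 in progenitor-like than in other cells, with medians of 4.97 and 2.80 on the log2 scale. Over all genes 12.9% and 13.7% were called as higher in these comparisons. Rhag, the Rh-associated glycoprotein, stood at 151, 185 and 3.48 CPM in progenitor-like, erythroid-like and other cells, and Ermap, a red cell adhesion protein, at 260, 245 and 6.34 CPM. Between the blood classes directly, 7 of the 14 were lower and 1 higher in progenitor-like cells. Of all genes, 2.86% were called as lower and 2.49% as higher there. The higher gene was Cd47, at 233 CPM in progenitor-like and 25.5 CPM in erythroid-like cells (2.58, adjusted p = 1.15e-05 by edgeR). That call held without each batch. Rhd, an Rh antigen, was 1.64 lower on the log2 scale in progenitor-like than in erythroid-like cells (adjusted p = 0.0183 by edgeR), a call lost without the batch block (-1.62, adjusted p = 0.166). Ank1 was higher than in other cells in both blood classes (3.34 and 4.91).

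Of 15 listed stem and progenitor surface proteins, 3 passed the filter on low counts and 12 did not. Cd44, the hyaluronan receptor, was higher in progenitor-like than in other cells (74.4 against 4.67 CPM, log2 fold change 4.61, SE 0.68). Tfrc, the transferrin receptor through which iron enters cells making haemoglobin, was higher in both blood classes (2.19 and 3.16). Mcam, CD146, was lower in progenitor-like cells (-4.23), a call lost without E9.5 replicate 2 (adjusted p = 0.119 by edgeR) and without E10 replicate 2 (0.0519).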

How the data were processed

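Single cells of 5 batches were profiled by modified STRT-seq, per the labels' protocols, with barcodes of 8 bases for the cell and for the molecule. CASAVA 1.8, TopHat2 2.0.12 and HTSeq (no version) and the mm10 build are named in the submitters' processing notes. A strand setting is not given in the sources used here. The authors deposited whole-number UMI counts for 24411 genes, 95 spike-in rows and 480 columns, 96 per batch. Columns were matched to batches by the batch number in their names. Spike-in rows were left out. The gene behind TER119 binding is not reported here.

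Cells needed 1000 genes and 30000 UMIs. After scaling and log transformation, clusters came from scanpy 1.11.5 with leidenalg 0.10.2 (2000 variable genes, 20 components, 15 neighbours, resolution 1, seed 0) without the members and the 6 gene lists. A cluster name needed 3 markers of a list whose median reached 20 CPM and exceeded the other cells by 2-fold. No doublet caller was run on these hand-picked cells. Counts were summed for each batch, and for each class within it where it had at least 3 cells, and tested with edgeR 4.0.16 (filterByExpr, TMM, quasi-likelihood F test, Benjamini-Hochberg over all genes tested, threshold 0.05). The SE printed with an edgeR fold change was derived, as the absolute log2 fold change divided by the square root of its F statistic. It is not a standard error estimated by the fit. DESeq2 1.42.0 was the second tool. Both class sums of a batch come from 1 collection, so class fits carried batch as a block; the stage fit had no covariate. The scripts were tested on simulated data. Shares carry exact binomial intervals at 95%, and a count of 0 a limit of 3 counts, for counting error only. Alternatives were other cell minima, thinning, filters, scalings, clustering resolutions, no block and each batch left out. Alternatives that combined the minimum of 5000 UMIs with repeated wells were chosen after seeing the data.

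The members and the gene and marker lists were chosen with earlier results of these data known. The text names the members, the 8 genes most like each detected member, and from each list up to 5 genes with the largest log2 fold change in progenitor-like against other cells among those called. Markers and genes named to complete a group are outside that rule. Positions are from GENCODE M21, and the promoter sequence is from RefSeq (GRCm38.p6), where 3 of 3 members matched by symbol.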

Additional observations from a re-analysis of the deposited data

How the results depend on the processing

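With 5 batches of 26 to 87 cells, 14 progenitor-like cells, and 1 batch with 69.1% of the Itga2b UMIs, depth and cell number limit every level. Of 158 recomputed values for the members and for counts of called genes, 130 kept their direction and side of the threshold or stayed close to the reported value. Of the rest, 9 turned in sign, 15 were weaker, 2 were stronger and 2 moved. Some of the 130 could not change. Ptprc was at 0 throughout, no repeated well reached 30000 UMIs, and no permutation p could fall below 0.1. The other clustering resolutions gave the same fits for the members. The 130 is therefore not a measure of robustness. No paired analysis was possible because each batch holds 1 stage and replicate numbers follow only accession order; class fits carried the batch as a block instead.

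Without E10 replicate 2, the stage difference in share turned to -7.75 percentage points for Itga2b and -9.56 for Spn, and the ranges over batches left out were -7.75 to 30.6 and -9.56 to 12.9. On the log2 scale the stage ranges were -0.79 to 1.52 for Itga2b and -2.22 to 4.89 for Spn, whose sign turned without E10 replicate 1 (0.51), E10 replicate 3 (0.30) and E9.5 replicate 2 (4.89). DESeq2 called 86 genes between stages. Thinned to 30000 UMIs, 8.84% of cells kept Itga2b and 4.76% kept Spn.

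In progenitor-like against other cells, leaving out batches gave 2.76 to 3.34 for Itga2b and 4.66 to 6.38 for Spn, and 1879 to 2772 called genes, and thinned cells gave 1388 called genes. In erythroid-like against other cells, Itga2b was 2.11 to 4.38 with a batch left out and 2.53 with no replicate block, and called genes numbered 1383 to 2544, 1993 with no replicate block and 1761 in thinned cells. Between the blood classes, Itga2b ranged from -1.62 to 0.94 and stood at 0.68 with no replicate block. Spn ranged from 3.96 to 5.59 and stood at 4.28 with no replicate block. Called genes there numbered 313 to 617, 255 with no replicate block, 312 in thinned cells and 1022 by DESeq2. For losses without the block or a batch the cause was not tested. Thinned class sums held fewer genes (5471 tested). Neither Itga2b nor Spn passed the filter on low counts in the thinned class or stage sums. Their differences in summed counts were therefore not tested at equal depth.

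Among list genes, the sign of an uncalled difference turned for Apbb1ip (-0.91 without E10 replicate 2), Ezr (-0.14 without E10 replicate 3) and Cd44 (0.087 thinned) in erythroid-like against other cells. Leaving out batches gave -0.91 to 1.9997 for Apbb1ip and -0.14 to 1.34 for Ezr. The sign also turned between the blood classes for Cd9 (0.039 with no replicate block, -0.97 to 0.18 with a batch left out) and Podxl (-0.46 thinned, -0.14 to 0.28 with a batch left out).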

Other observations

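One cell outside the blood classes was noticed after its values were seen. It was in E10 replicate 2, with 462848 UMIs, and had 15 Itga2b UMIs (32.4 CPM), the most of any other cell, together with 4 Spn UMIs. It also held 128 of the 201 Pf4 UMIs of all cells, the transcript of platelet factor 4, with 18 UMIs of Gfi1b, a transcription factor of erythroid and megakaryocyte precursors, and 3 of Kit. Its Hbb-y level was 18704 CPM, within the range of 9783 to 46303 CPM of the other cells of its batch. The highest Itga2b level of any other cell, 127 CPM, rested on 4 UMIs in a cell of 31384 UMIs.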
